A study of Mus musculus with 2 samples.

Results

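The genes described here are 44 mouse cell cycle genes, measured by single-cell RNA sequencing in CD45+ immune cells of the cochlea. They were chosen by name, for their place in the cell cycle, with earlier results of these data known. Counts of them beside a share of all genes are thus descriptions. These genes make up 44 of the 31053 genes of the deposited table. They fall into 5 roles: 2 genes that set the gate for a dividing cell (Mki67 and Top2a), 22 genes of mitosis, 12 genes of DNA replication, 6 chromatin genes and 2 cytoskeleton genes. All 44 had UMIs, that is, unique molecular identifiers, each standing for 1 captured RNA molecule.

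The cell cycle runs on 2 waves of transcription. Late in G1, cyclin D and cyclin E kinases inactivate the retinoblastoma family, and the E2F factors then switch on the genes for origin licensing, nucleotide supply and DNA synthesis. In G2, the MuvB complex, first with B-Myb and then with FOXM1, switches on the genes for mitotic entry, spindle assembly and chromosome segregation, and in resting cells the same MuvB core sits in the DREAM complex and keeps them off. In blood formation, B cell precursors alternate between bursts of division and a resting stage in which the RAG recombinase joins antibody gene segments, whereas neutrophils divide as promyelocytes and myelocytes and leave the cycle for good as they mature.

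The study compared cochlear immune cells after noise exposure with cells of sham mice. Cochleae of 6 mice were pooled for each of 4 conditions, namely sham mice, which the labels also call untreated, and mice at day 3, day 7 and day 14 after noise, and living CD45+ cells were sorted. Each pool was marked with its own hashtag antibody and all pools were sequenced as 1 droplet library. Strain, age, sex and the noise level are not in the labels, nor is any genotype or treatment other than sham and noise, and the labels name the chemistry once as v2 and once as v3. Each condition is thus 1 pool, so no difference between conditions has a test, and intervals on shares and ratios cover counting error only.

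The promoters of the members were searched for 3 short words, which are known from promoters of cell cycle genes and are shown here for that reason. RefSeq promoters (GRCm38.p6) were matched for 32 of the 44 genes, among them both gate genes, 17 mitosis genes and 11 replication genes. A gene was counted where any of its promoters held a word in the 250 bases upstream of the start, on either strand. The CHR word TTTGAA is the element that MuvB complexes bind. It was present for 6 of 17 mitosis genes (35.3%), 1 of 11 replication genes (9.09%, Mcm2) and 18.3% of all 27025 genes. It was also present at both gate genes and at Hmgb2; the 6 mitosis genes were Ccnb2, Cdc20, Cdk1, Kif11, Kpna2 and Ube2c. An E2F word (TTTCCCGC, TTTCGCGC, TTTGCCGC or TTTGGCGC) was present for 3 of 11 replication genes (27.3%, Mcm5, Mcm6 and Mcm7). It was present for 1 mitosis gene (Cdk1) and for 2.16% of all genes. The CCAAT box, bound by NF-Y, was present for 15 of 17 mitosis and 9 of 11 replication genes (88.2% and 81.8%), against 37.5% of all genes. No difference between the roles was tested. A match is a string of letters and not a measured binding site. The stretches below are from 2 mitosis genes with a CHR word (Ube2c, chr2:164769869-164769928, plus strand; Ccnb2, chr9:70421688-70421747, minus strand) and 2 replication genes with an E2F word (Mcm7, chr5:138172015-138172074, minus strand; Mcm6, chr1:128359719-128359778, minus strand). Each is written 5′ to 3′ on the strand of the gene, with the words in capitals, on whichever strand they were found.
Ube2c: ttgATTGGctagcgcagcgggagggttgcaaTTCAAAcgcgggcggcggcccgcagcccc
Ccnb2: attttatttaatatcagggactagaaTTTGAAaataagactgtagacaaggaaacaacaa
Mcm7: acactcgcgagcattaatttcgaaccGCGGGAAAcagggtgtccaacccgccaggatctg
Mcm6: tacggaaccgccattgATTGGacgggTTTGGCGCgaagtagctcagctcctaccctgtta
In Ube2c and Mcm6 the capitals ATTGG are the CCAAT box read on the other strand, TTCAAA in Ube2c is the CHR word and GCGGGAAA in Mcm7 an E2F word, both also on the other strand.

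The table held 1556 barcodes with 15753747 gene UMIs. A barcode was given to a pool where its leading hashtag had at least 10 UMIs and 80% of all hashtag UMIs, which held for 1359 barcodes, and 1285 of these had at least 200 genes and at most 10% mitochondrial UMIs. The sham, day 3, day 7 and day 14 pools held 341, 551, 216 and 177 of these cells, with 3543259, 6681492, 2529045 and 1873067 gene UMIs and median depths of 6528, 8378, 7403.5 and 7190.0 UMIs per cell. Marker scores placed 1153 cells in a lineage and left 132 in none. The markers that set the lineages were then read back. The highest level was in the lineage of that name for 10 of 13 B cell precursor markers and 8 of 9 immature neutrophil markers. It was so for 6 of 8 myeloid progenitor markers and 9 of 10 mature neutrophil markers. The same markers placed the cells, so these counts are no independent check of the names. Of 12 markers of cochlear non-immune cells, 3 to 6 had UMIs in the neutrophil, progenitor and B lineages, with a summed level of 7.16 to 96.5 CPM. Most of the sum in the B lineage was Pecam1, an adhesion molecule that leukocytes also make (82.0 CPM in B cell precursor-like and 84.4 CPM in B cell-like cells), and without it the sums were 4.54 to 16.6 CPM. Dcn, Mgp and Cldn5 had 0 UMIs in these lineages. All levels below are UMIs per 1000000 gene UMIs (CPM), and since a 3′ UMI is counted once per molecule they carry no gene length.

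Most of the UMIs of each of these genes came from a small set of cells. A cell with at least 3 UMIs of Mki67 (ENSMUSG00000031004, chr7:135689784-135716361, minus strand, GRCm38), which coats mitotic chromosomes, plus Top2a (ENSMUSG00000020914, chr11:98992943-99024189, minus strand), the topoisomerase that untangles sister DNA, is called an Mki67/Top2a-high cell here. There were 174 such cells, 13.5% of the 1285 cells with 32.5% of their UMIs. They held 97.3% of the UMIs of the median mitosis gene, from 75.2% for Cenpa, the centromere histone, to 99.6% for Bub1, a spindle checkpoint kinase. For the replication genes the median was lower, 81.3%, from 74.9% for Mcm4, a subunit of the replicative helicase, to 99.1% for Pclaf, a partner of PCNA. The chromatin genes ranged from 66.8% for Hmgb2, a DNA-bending protein, and 68.4% for the variant histone H2afz up to 98.4% for the linker histone Hist1h1b. At the threshold itself, the 13 cells with exactly 2 gate UMIs had a median of 7 UMIs of replication and mitosis genes and the 9 cells with exactly 3 had a median of 60, against 158.5 in all Mki67/Top2a-high cells and 1 in cells with none.

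**Figure D1:**
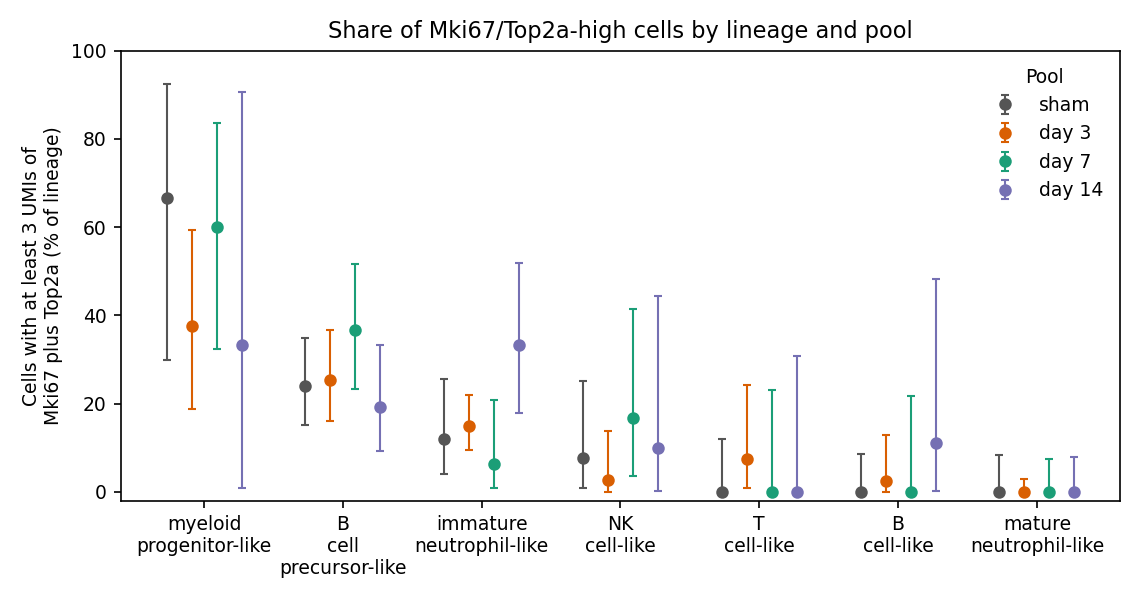
Share of Mki67/Top2a-high cells (percent, vertical axis) in each lineage and in each of the 4 pools, with exact Clopper-Pearson 95% intervals that cover counting error only. Over all pools, myeloid progenitor-like (49.0%), B cell precursor-like (26%) and immature neutrophil-like cells (15.8%) stand above the mature lineages. In the day 7 pool, immature neutrophil-like cells (2 of 32, 6.25%) lie below NK cell-like cells (3 of 18, 16.7%). No mature neutrophil-like cell was high.

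Summed over the pools, dividing cells were common in 3 lineages and rarer in the mature ones. The plot of shares by lineage shows each pool. Among myeloid progenitor-like cells, the granulocyte and monocyte precursors that make Elane and Mpo, 25 of 51 were high (49.0%, exact Clopper-Pearson 95% interval 34.8 to 63.4%). Among B cell precursor-like cells, which make the surrogate light chain genes Vpreb1 and Igll1, 65 of 250 were high (26%, 20.7 to 31.9%). Among immature neutrophil-like cells, which make the granule proteins Camp and Ngp, 39 of 247 were high (15.8%, 11.5 to 20.9%). These 3 lineages together gave 129 of the 151 high cells that had a lineage. Mature lineages had far fewer: 7 of 92 NK cell-like cells (7.61%), 2 of 80 T cell-like cells (2.50%), 2 of 106 B cell-like cells (1.89%) and 1 of 38 macrophage-like cells (2.63%). None of 262 mature neutrophil-like cells was high, with an upper bound of 1.40% by the exact 95% interval. In 4 lineages of 11 or fewer cells there were 10 more high cells, 3 of 11 basophil or mast cell-like, 3 of 8 monocyte or dendritic cell-like, 3 of 4 megakaryocyte-like and 1 of 2 erythroid-like cells. The remaining 23 high cells had no lineage.

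Depth differed between the lineages, in an order other than that of the shares. Median depth was 31137 UMIs in myeloid progenitor-like cells, 15093 in immature neutrophil-like cells, 6412.5 in B cell precursor-like cells and 4890.0 in mature neutrophil-like cells, and the high cells of the first 3 lineages had medians of 37870.0, 31225 and 17776. With every cell thinned to 3000 UMIs and shallower cells left out, 22.4% of B cell precursor-like cells (53 of 237) and 9.28% of immature neutrophil-like cells (22 of 237) were still high, but only 3.92% of myeloid progenitor-like cells (2 of 51) and 0 of 219 mature neutrophil-like cells, which allows a share of up to 1.37%. The order of progenitors and B cell precursors thus turned around. Thinned NK cell-like cells stood at 3.45% (3 of 87), close to the progenitors. The thinning kept 237 of 250 B cell precursor-like, 237 of 247 immature neutrophil-like, all 51 myeloid progenitor-like and 219 of 262 mature neutrophil-like cells. With 1 gate UMI asked for at that depth, added after seeing the data, the shares were 29.4%, 27.4% and 16.9% in progenitors, B cell precursors and immature neutrophils, and 3.20% in mature neutrophil-like cells. Unthinned, 10 of 262 mature neutrophil-like cells (3.82%) had at least 1 gate UMI, a level that free RNA in the droplets can give, against 32.4% of B cell precursor-like cells. Without the 5% deepest barcodes the shares were 45.8%, 21.9% and 11.5% in progenitors, B cell precursors and immature neutrophils. No doublet caller was run; 7 of 44 barcodes with mixed hashtags, which joined cells of different pools, were high (15.9%), and pairs of cells from 1 pool cannot be seen this way.

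**Figure D2:**
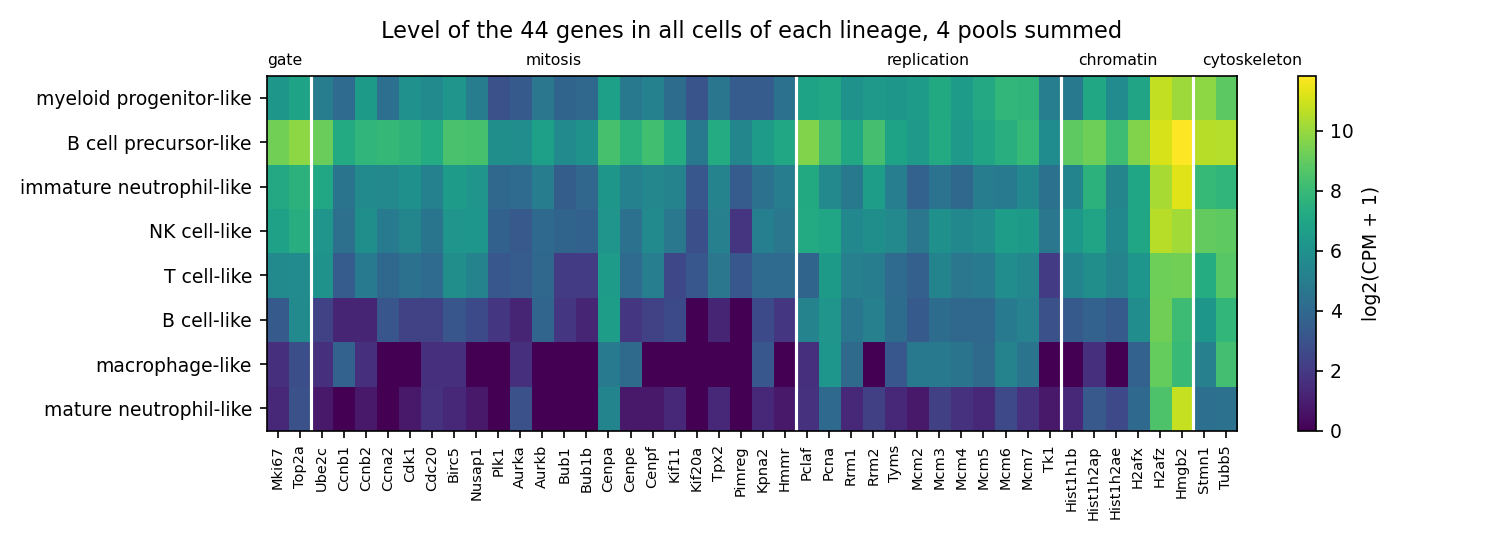
Level of each of the 44 genes (columns, grouped by role) in all cells of 8 lineages (rows), as log2(CPM + 1) with the 4 pools summed. The B cell precursor-like row is the brightest over most mitosis columns, and Hmgb2 and H2afz are bright in every lineage, mature neutrophil-like cells included.

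The members were next compared between whole lineages, with UMIs summed per pool and lineage and tested with edgeR's quasi-likelihood test with the pool as a block, adjusted by Benjamini-Hochberg over all genes. The p-values measure the spread between 3 or 4 pools. B cell precursor-like cells were above immature neutrophil-like cells for 33 of the 44 members and below for 1, where 32.2% of all 6305 genes tested were higher and 31.4% lower. The higher members were both gate genes, 16 of 22 mitosis genes, 9 of 12 replication genes, 4 of 6 chromatin genes and both cytoskeleton genes, with a median log2 fold change of 0.93 over all members against 0.11 over all genes. Camp and Ngp alone stood at 34934 and 30593 CPM in immature neutrophil-like cells, and the scaling changed these counts. Scaled by total UMIs instead of TMM, an alternative added after seeing the data, the median of all genes moved from 0.11 to 1.40, all 44 members were higher, and the split of all genes went from 2032 higher and 1979 lower to 4435 and 935. The CPM values below are on the total-UMI scale, so their ratios run ahead of the TMM fold changes.

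Among the gate genes, Mki67 stood at 473, 608, 821 and 643 CPM in the B cell precursor-like cells of the sham, day 3, day 7 and day 14 pools, the order used throughout, and at 71.1, 125, 138 and 271 CPM in immature neutrophil-like cells. The lowest B cell precursor pool was above the highest neutrophil pool (edgeR log2 fold change 0.93 ± 0.23 (SE), adjusted p = 0.0022). Among the mitosis genes, Cenpf, an outer kinetochore protein, was at 129, 358, 451 and 311 CPM against 5.58, 36.2, 60.2 and 99.8 CPM, again with no overlap (log2 fold change 1.60 ± 0.30 (SE), edgeR adjusted p = 2.6e-04). Ccnb1, the cyclin that carries CDK1 into mitosis, followed with a log2 fold change of 1.35. Both lineages had their lowest Cenpf and Ccnb1 in the sham pool.

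Among the replication genes, Mcm3, a subunit of the replicative helicase, was at 195, 128, 179 and 72.6 CPM in B cell precursor-like cells and at 40.5, 16.7, 13.4 and 24.2 CPM in immature neutrophil-like cells (log2 fold change 1.35 ± 0.27 (SE), edgeR adjusted p = 5.0e-04). Its lowest B cell precursor pool, day 14, was still above the highest neutrophil pool. Hist1h1b had the largest fold change of the members between these lineages, 2.37 ± 0.31 (SE) on the log2 scale (edgeR adjusted p = 8.3e-06), with 476, 511, 451 and 482 CPM against 8.37, 40.0, 60.2 and 62.8 CPM. The B cell precursor pools were close together for this gene, while the neutrophil sham pool was far below the other neutrophil pools. The 2 cytoskeleton genes, Stmn1, a microtubule-destabilising protein, and Tubb5, a beta tubulin, had log2 fold changes of 1.42 and 1.38.

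Hmgb2 was the 1 member called lower, at 3166, 3501, 4515 and 3549.8 CPM in B cell precursor-like and 1865, 2442, 2066 and 3411 CPM in immature neutrophil-like cells, with a TMM log2 fold change of -0.63 ± 0.18 (SE) (edgeR adjusted p = 0.0066) that turned to 0.65 and a call of higher when scaled by total UMIs. Its direction therefore depends on the scaling. The count of 33 also fell to 19 without the day 3 pool, to 23 with no pool block (median log2 fold change 0.86) and to 5 of 42 tested with a larger lineage margin (median 1.09), which left 0 Mki67/Top2a-high cells among the immature neutrophil-like cells of day 7.

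Of 74 other cell cycle genes in 6 lists, 65 were tested in this comparison, and 25 were higher and 7 lower in B cell precursor-like cells, where 32.2% of all genes were higher and 31.4% lower. By list, the higher calls were 9 of 12 polymerases and fork genes, 6 of 16 spindle checkpoint and cohesin genes, 4 of 9 G1 cyclins and kinases, 3 of 8 origin licensing and firing genes, 2 of 13 E2F, DREAM or MuvB regulators and 1 of 7 CDK inhibitors and quiescence genes, and no difference between lists was tested. Cdk4, the G1 kinase that works with D cyclins, was at 183, 165, 219 and 111 CPM in B cell precursor-like cells and at 13.9, 6.66, 15.6 and 4.83 CPM in immature neutrophil-like cells (log2 fold change 2.92 ± 0.25 (SE), edgeR adjusted p = 9.7e-08). Cdc25b, a phosphatase that activates CDK1, was higher by 3.43 on the log2 scale, Pold1, a DNA polymerase subunit, by 2.88, and Uhrf1, which passes DNA methylation on at replication forks, by 2.79. Tfdp1, the partner that E2F factors need to bind DNA, went the other way, with 107, 92.5, 98.7 and 72.6 CPM against 163, 163, 120.3 and 193 CPM in the neutrophils (log2 fold change -2.02 ± 0.21 (SE), edgeR adjusted p = 7.6e-07), and it stayed lower by total UMIs (-0.73). The lower calls of Lin54, Rbl2, Cdkn2d, Tob1, Cdc25a and Ccnd3 turned to positive fold changes when scaled by total UMIs.

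Within the B lineage the members were higher in the precursors. Of the 44 members, 42 passed the filter on low counts and all 42 were higher in B cell precursor-like than in B cell-like cells over the sham, day 3 and day 7 pools, where 18.1% of 5675 genes were higher. A gene could pass the filter through its level in the precursors alone, so the count is a description. The B cell-like group also held myeloid RNA. All 4 tested markers of monocytes or dendritic cells and all 3 tested macrophage markers were lower in the precursors. Of all 5675 genes, 1049 were lower there. These markers could pass the filter through the B cell-like cells alone, so their counts are descriptions too. Over all pools Cd209a was at 174, Clec9a at 40.2, Xcr1 at 44.2, Lyz2 at 1076 and Il1b at 299 CPM in B cell-like cells. The part of these cells or of free RNA in the values of the members was not tested. Stmn1 was at 1512, 1417 and 1879 CPM in precursors and at 37, 14.7 and 24.5 CPM in B cell-like cells (log2 fold change 5.71 ± 0.22 (SE), edgeR adjusted p = 3.2e-14), and Hmgb2 at 3166, 3501 and 4515 against 237, 225 and 179.9 CPM (log2 fold change 3.84). The smallest changes were those of Cenpa (1.46), H2afz (1.83) and Pcna (1.99), the sliding clamp of DNA polymerases, all of which B cell-like cells also expressed: H2afz, for one, was at 548, 531 and 580.4 CPM there.

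The regulators that moved the other way in the B lineage were few. Ccnd3, the D cyclin that pre-B cells rely on, was higher in precursors, with 534, 488 and 515 CPM against 174, 118 and 98.1 CPM (log2 fold change 1.74 ± 0.19 (SE), edgeR adjusted p = 2.0e-07), whereas Ccnd2 was lower, with a log2 fold change of -1.44 (edgeR adjusted p = 0.0055), 59.5, 57.1 and 23 against 37, 155 and 188 CPM and overlapping pools. Btg1, an antiproliferative gene of resting lymphocytes, was also lower in precursors, at 1702, 1214 and 1069 CPM against 2572, 2620.5 and 1970.3 CPM (log2 fold change -1.06 ± 0.11 (SE), edgeR adjusted p = 1.1e-07). Foxm1 and Mybl2, which encodes B-Myb, had 0 UMIs in the B cell-like cells of these 3 pools and stood at 34.2, 25.8 and 23 CPM and 23.8, 24.5 and 26.3 CPM in precursors.

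In the neutrophil lineage 24 of 44 members passed the filter, which a gene could do through the immature cells alone, and all 24 were higher in immature than in mature neutrophil-like cells, where 27.5% of 4017 genes were higher and 27.0% lower. With no filter all 44 were tested and all were higher. Ube2c, which hands ubiquitin to the anaphase-promoting complex, was at 20.9, 114, 103 and 338 CPM in immature cells and at 0, 0, 4.23 and 0 CPM in mature cells. Hmgb2 and H2afz were also present in mature cells. Hmgb2 was at 1865, 2442, 2066 and 3411 CPM in immature and still at 1640.3, 1773, 1882 and 1742 CPM in mature neutrophil-like cells, with pools that overlapped (log2 fold change 0.73 ± 0.15 (SE), edgeR adjusted p = 0.0015). H2afz was at 1134, 1152, 854 and 1999 CPM and at 449, 372, 334 and 339 CPM (log2 fold change 2.01 ± 0.20 (SE), edgeR adjusted p = 3.3e-06). Mature neutrophil-like cells thus held both RNAs and had 0 Mki67/Top2a-high cells.

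Of 7 tested CDK inhibitors and quiescence genes, 5 were lower in immature than in mature neutrophil-like cells. Btg2, an antiproliferative gene, was at 215, 205, 169 and 124 CPM in immature and at 1862, 2384, 1222 and 1322 CPM in mature cells (log2 fold change -2.95 ± 0.16 (SE), edgeR adjusted p = 2.7e-08). Btg1 and Cdkn1b, the inhibitor p27, had log2 fold changes of -2.42 and -1.62. Cdkn2c, the CDK4 and CDK6 inhibitor p18, was the exception in that list, higher in immature cells at 23.7, 30.8, 26.7 and 41.9 against 0, 5.85, 8.46 and 0 CPM (log2 fold change 3.06). A gene could pass the filter through 1 side alone, Cdkn2c through immature and Ccnd2 through mature cells, so both changes are descriptions. The D cyclins split as in the B lineage: Ccnd3 was higher in the immature cells (1.40) and Ccnd2 lower (-2.76, with 0, 7.08, 0 and 4.83 against 30.9, 30.7, 21.1 and 69.3 CPM).

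**Figure D3:**
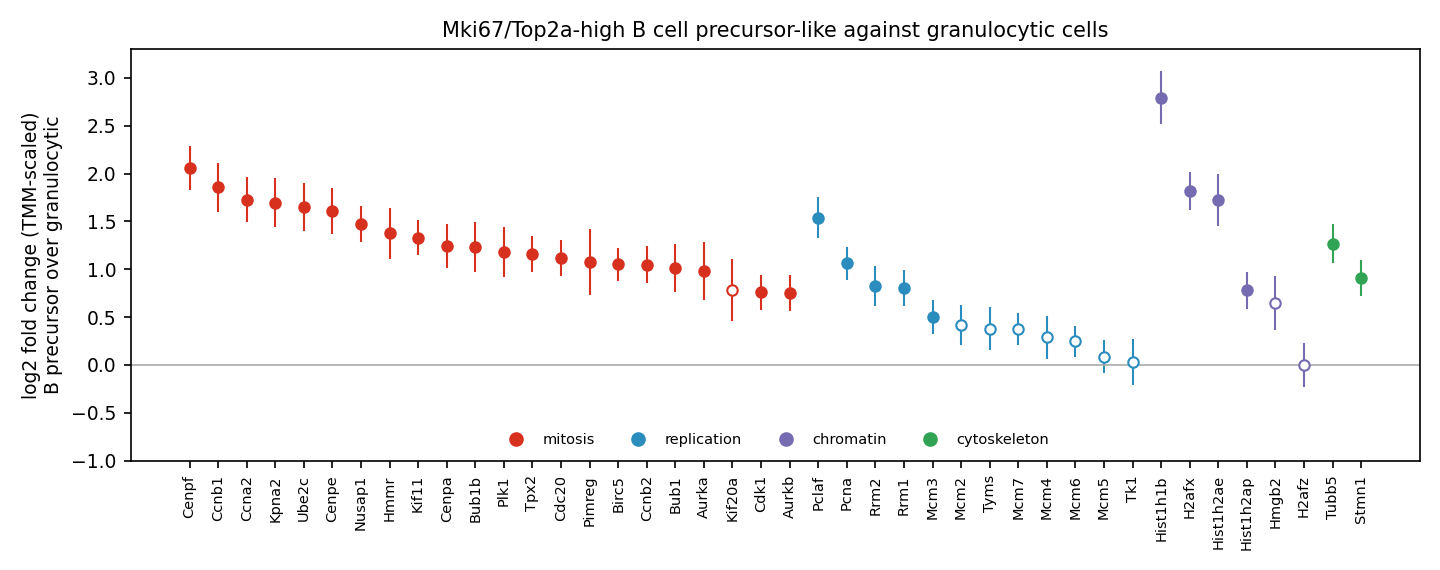
Log2 fold change of each member other than the gate genes, which chose the cells, between Mki67/Top2a-high B cell precursor-like cells and Mki67/Top2a-high granulocytic cells (immature neutrophil-like plus myeloid progenitor-like), with the SE of the edgeR fit as bars and open circles for genes that were not called. Mitosis genes lie between 0.75 and 2.06, replication genes between 0.03 and 1.54, and Hist1h1b is highest at 2.79. The gate was met at a lower CPM in the deeper granulocytic cells.

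The comparison of whole lineages mixes the share of dividing cells with the level in each dividing cell, so the high cells were then compared with each other. Mki67/Top2a-high B cell precursor-like cells were above Mki67/Top2a-high granulocytic cells, the immature neutrophil-like and myeloid progenitor-like cells together, for 32 of the 42 members other than the gate genes and below for 0, where 18.1% of 4588 genes were higher and 18.8% lower. The higher members were 21 of 22 mitosis genes, 5 of 12 replication genes, 4 of 6 chromatin genes and both cytoskeleton genes. The gate counts UMIs per cell, so the deeper granulocytic cells met it at a lower CPM of the gate genes. Genes that go with the gate genes were thus chosen unevenly on both sides. These counts, and those of the other cell cycle genes below, are therefore descriptions. The median log2 fold change was 1.21 for mitosis genes, 0.40 for replication genes and 0.03 for all genes. Without the myeloid progenitor-like cells, an alternative added after seeing the data, the medians were 0.56 for mitosis and 0.43 for replication genes, and 8 of 22 mitosis and 3 of 12 replication genes were higher. Scaled by total UMIs, all 22 mitosis and 11 of 12 replication genes were higher, and the median of all genes moved from 0.03 to 0.55 (829 higher and 862 lower genes became 1723 and 492). The difference between the mitosis and replication lists was not tested.

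Top2a was at 1377, 1590.1, 1603 and 2452 CPM in high B cell precursor-like cells and at 366, 438, 368 and 608 CPM in high granulocytic cells, and Mki67 at 922, 1175, 1092 and 1510.3 against 195, 328, 268 and 447 CPM. Both genes set the gate, in UMIs per cell, so these levels are a description with no test, and the granulocytic cells that met it were deeper than the B cell precursors (pool medians of 31549 to 34508 against 15398 to 24678.5 UMIs). The part of depth, and of a gate met at a lower CPM, in the other values and their p-values was not tested.

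Of the mitosis genes, Cenpf was at 248, 689, 599 and 722 CPM in high B cell precursor-like cells and at 21, 93.8, 115 and 169 CPM in high granulocytic cells, without overlap (log2 fold change 2.06 ± 0.23 (SE), edgeR adjusted p = 4.8e-06). Ccnb1 (1.85), Ccna2, the cyclin of S phase and G2 (1.73), Kpna2, a nuclear import receptor (1.70), and Ube2c (1.65) followed. Ube2c ranged from 362 to 1589.8 CPM over the B cell precursor pools and from 55.2 to 555 CPM over the granulocytic pools, and these ranges overlapped. The lowest value of both sides was in the sham pool and the highest in the day 14 pool. Kif20a, a kinesin of cytokinesis, was the mitosis gene not called (0.78 ± 0.33 (SE), edgeR adjusted p = 0.078).

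Of the replication genes, Pclaf was at 1315, 1456, 1253 and 1749 CPM in high B cell precursor-like cells and at 379, 386, 202 and 423 CPM in high granulocytic cells, the largest difference in that list (log2 fold change 1.54 ± 0.21 (SE), edgeR adjusted p = 4.6e-05). Pcna (1.06), the ribonucleotide reductase subunits Rrm2 (0.83) and Rrm1 (0.80), and Mcm3 (0.50) were also higher, and the other 7 genes, among them Tyms, Tk1 and the remaining MCM subunits, were not called. The histone Hist1h1b (ENSMUSG00000058773, chr13:21779883-21780625) was at 916, 980.4, 601 and 1125 CPM against 28.9, 102, 125 and 103 CPM, the largest fold change of all members (log2 2.79 ± 0.28 (SE), edgeR adjusted p = 1.5e-06). H2afx, the histone that is phosphorylated at DNA breaks, had a log2 fold change of 1.82, Hist1h2ae of 1.72 and Hist1h2ap of 0.78. Hist1h2ap and Hist1h2ae have near-identical copies in the chr13 histone cluster, so their reads may be shared among genes, and replication-dependent histone mRNAs mostly lack the poly(A) tail this library was primed on.

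Some of these differences changed with the cells that were compared. Leaving out the gate genes, without the myeloid progenitor-like cells 16 of 42 members were higher, where 17.8% of all genes were, and 1 was lower over 3 pools (Tk1, thymidine kinase, at -0.78), Cenpf at 1.38, Ccnb1 at 0.89, Ube2c and Pclaf at 0.69 each and Hist1h1b at 2.36 on the log2 scale, while Rrm2 went to -0.0912. Where only cells with mostly mitosis UMIs were compared on both sides, 10 of 36 tested members were higher, where 13.9% of all genes were, with Cenpf at 1.73 and Ube2c at 1.37 (no longer called). Where only cells with mostly replication UMIs were compared, 20 of 28 were higher, where 14.9% of all genes were, with Pclaf at 2.23. All 3 of these comparisons were added after seeing the data, and each had 3 pools.

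Of the other cell cycle genes, 31 of 65 tested were higher in the high B cell precursor-like cells and 5 lower, where 18.1% of all genes were higher and 18.8% lower. Cdc25b was the largest, at 90.4, 181, 129.9 and 232 CPM against 5.26, 9.48, 17.9 and 7.93 CPM (log2 fold change 3.40 ± 0.30 (SE), edgeR adjusted p = 5.1e-07), and it kept 3.43 without the progenitors and 3.05 among mostly mitosis cells. Uhrf1 was at 338, 273, 273 and 257 against 63.1, 49.3, 46 and 37 CPM (2.01 ± 0.19 (SE), edgeR adjusted p = 8.2e-07), and E2f2, an activating E2F, at 184, 213, 189 and 165 against 36.8, 40.7, 33.2 and 34.4 CPM (1.84 ± 0.21 (SE), edgeR adjusted p = 7.1e-06). Neither gene had overlapping pools. Of 16 spindle checkpoint and cohesin genes, 12 were higher, among them Sgo1, which protects centromeric cohesin (1.41), and Pttg1, the securin (1.23), as were 8 of 13 polymerases and fork genes and 1 of 9 origin licensing and firing genes. No difference between these lists was tested. The lower calls were Ccnd2 (-1.33), Cdc25a, which activates CDK2 (-1.09), Tfdp1 (-1.03), Cdk6 (-0.87) and the inhibitor Cdkn1a (-0.82), and all 5 were no longer called when scaled by total UMIs.

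**Figure D4:**
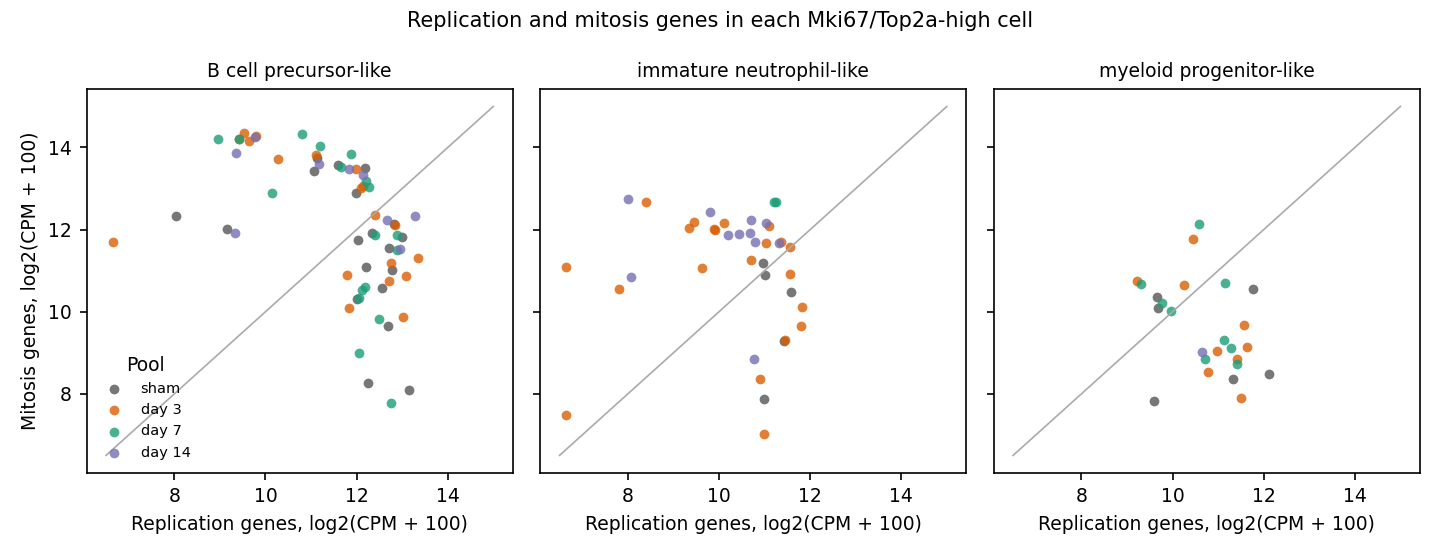
Summed level of the 12 replication genes (horizontal axis) against that of the 22 mitosis genes (vertical axis) in each Mki67/Top2a-high cell of 3 lineages, in CPM on log axes with a pseudocount of 100, with a grey line where both are equal. B cell precursor-like cells spread along both sides of the line (24 mostly replication, 27 mostly mitosis), whereas 15 of 25 myeloid progenitor-like cells are mostly replication.

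Many single high cells held mostly 1 of the 2 waves. A cell is called mostly replication here where replication genes had over 67% of its replication plus mitosis UMIs, and mostly mitosis where they had under 33%. Of 65 high B cell precursor-like cells, 24 were mostly replication, 27 mostly mitosis and 14 between. Of 39 high immature neutrophil-like cells, 9 were mostly replication, 20 mostly mitosis and 10 between, and of 25 high myeloid progenitor-like cells 15 were mostly replication, 4 mostly mitosis and 6 between. Across cells, the replication and mitosis levels had a Pearson r of -0.36 and a Spearman rho of -0.62 in B cell precursor-like cells (65 cells), of 0.13 and -0.26 in immature neutrophil-like cells (39) and of -0.39 and -0.42 in myeloid progenitor-like cells (25). Cells share a library and levels share each cell's depth, so these are descriptions.

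The comparison of the mostly replication with the mostly mitosis B cell precursor-like cells over the sham, day 3 and day 7 pools was added after seeing the data. The replication and mitosis lists were used by it, so their calls (11 of 12 replication genes higher, 22 of 22 mitosis genes lower) say nothing. Other genes that follow either list across cells would differ by this choice too, so the p-values below describe the split. Of all 2333 genes tested, 11.7% were higher and 11.5% lower in the mostly replication cells. Mki67, a gate gene, was at 459.6, 703 and 447 CPM in mostly replication and at 2115, 1941 and 1954 CPM in mostly mitosis cells. Both sides were chosen with the gate genes, so this is a description with no test.

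Of the 6 chromatin genes, 2 were lower in the mostly replication cells and 4 were not called. H2afx was at 342, 592 and 427 CPM in mostly replication and at 2489, 3139 and 2017 CPM in mostly mitosis cells (log2 fold change -2.41 ± 0.18 (SE), edgeR adjusted p = 1.0e-06), and Hmgb2 at 3970.3, 4515 and 4046 against 10033, 9432 and 9529.6 CPM (-1.12 ± 0.10 (SE), edgeR adjusted p = 4.0e-06). Both were thus lower in the mostly replication cells of every pool. The variant histone H2afz was not called, at 3270.3, 3392 and 3768 against 3766, 3966 and 3851 CPM. The replication-dependent histones were not called, and their pools disagreed: Hist1h1b was at 689, 1899.5 and 506 CPM in mostly replication and at 1367, 704 and 372 CPM in mostly mitosis cells, higher in the former at day 3 and day 7 and in the latter in the sham pool. The fold changes of Hist1h1b, Hist1h2ap and Hist1h2ae turned negative without the day 3 pool. Tubb5 was lower in the mostly replication cells, with a log2 fold change of -0.51 (edgeR adjusted p = 0.015), and Stmn1 was not called, at 2875, 2763 and 2363 against 2682, 2683 and 2410.5 CPM.

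Of the regulator lists, the 11 polymerases and fork genes that passed the filter were higher in the mostly replication cells, 6 of 7 origin licensing and firing genes were higher, and 11 of 14 spindle checkpoint and cohesin genes were lower. A gene could pass the filter through the side where it is high, so these counts are descriptions. E2f1, the first of the activating E2Fs, was at 96.2, 136 and 109 CPM in mostly replication cells and had 0 UMIs in mostly mitosis cells of the 3 pools, and Ccne2, a cyclin E, was at 219, 370.04 and 154 CPM against 0 UMIs. Cdk4 was at 401, 345 and 422 against 77.4, 85 and 112 CPM (log2 fold change 2.14 ± 0.27 (SE), edgeR adjusted p = 4.7e-05), and Cdca7, which helps recruit a chromatin remodeller, was higher by 3.90. On the mitosis side stood Pttg1 (-3.31), Cdc25b (-2.50) and also an inhibitor, Cdkn2d or p19, at 80.2, 136 and 94.3 against 709, 595 and 436 CPM (-2.41 ± 0.27 (SE), edgeR adjusted p = 1.7e-05).

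**Figure D5:**
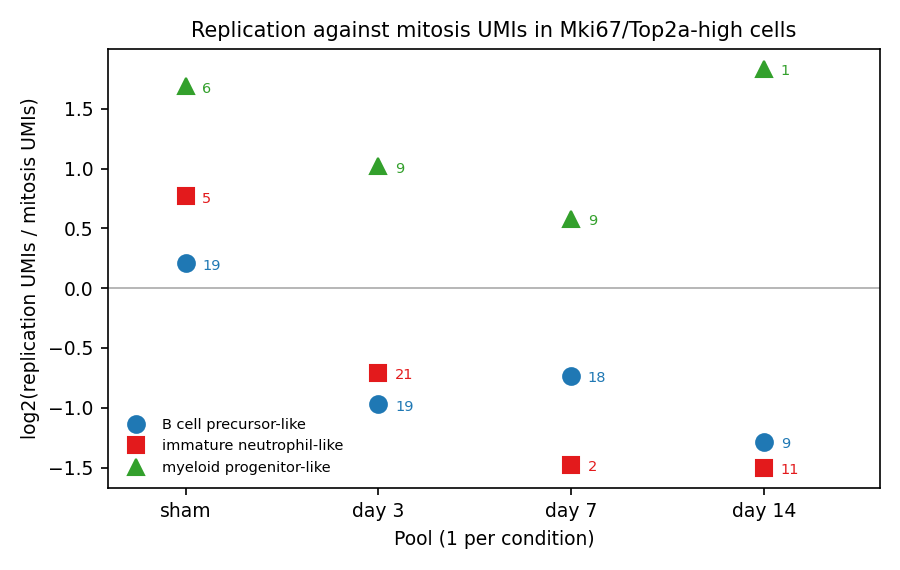
Log2 ratio of replication UMIs to mitosis UMIs in the Mki67/Top2a-high cells of each lineage and pool, with the number of cells beside each point and cells not thinned to equal depth. The sham point lies above the 3 noise points in B cell precursor-like and immature neutrophil-like cells, and every myeloid progenitor-like point is above 0, though the 1 that can be computed after thinning to 3000 UMIs (day 7) is -0.87.

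The balance of the 2 waves varied between pools, and among these 3 lineages it was highest in the progenitors before cells were thinned to equal depth. Summed over high cells, the log2 ratio of replication to mitosis UMIs in B cell precursor-like cells was 0.21, -0.97, -0.73 and -1.29 in the sham, day 3, day 7 and day 14 pools (19, 19, 18 and 9 cells), a mean of -0.70 ± 0.64 (SD, n = 4 pools). In immature neutrophil-like cells it was 0.77, -0.71, -1.48 and -1.50 (5, 21, 2 and 11 cells), and in myeloid progenitor-like cells 1.69, 1.02, 0.58 and 1.83 (6, 9, 9 and 1 cells). Taking pools with at least 4 cells on both sides, the progenitors were above the B cell precursors in 3 of 3 pools, by 1.59 (SD 0.35), and an exact sign-flip permutation test, two-sided, gave p = 0.25, the smallest that 3 pools allow (0.5 adjusted over 4 comparisons). B cell precursors and immature neutrophils differed by -0.20 over 3 pools (SD 0.39, exact permutation p = 0.5), B cell precursors and all granulocytic cells by -0.58 over 4 pools (SD 0.45, exact permutation p = 0.25), and progenitors and immature neutrophils by 1.32 over 2 pools. The sign of the sham pool's ratio in B cell precursors was not stable to depth: thinned to 3000 UMIs, the 4 ratios were -0.15, -0.98, -1.50 and -1.20, the sham pool still being the highest. Over all pools the thinned ratio was -0.87 in the 2 progenitors still high, both of day 7, against 1.01 unthinned, and it was -0.95 in B cell precursors and -0.83 in immature neutrophils. In immature neutrophil-like cells, 1 cell held 42.8% of the mitosis UMIs of the high cells of the sham pool and 1 cell 52.1% of those of day 7.

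The share of high cells varied between pools, and no difference between sham and noise pools was tested. In B cell precursor-like cells it was 24.1%, 25.3%, 36.7% and 19.1% in the sham, day 3, day 7 and day 14 pools, and the ratios to sham were 1.05 (95% interval 0.528 to 2.10), 1.53 (0.756 to 3.07) and 0.796 (0.317 to 1.85). In immature neutrophil-like cells it was 11.9%, 15.0%, 6.25% and 33.3%, with ratios of 1.26 (0.462 to 4.28), 0.525 (0.05 to 3.21) and 2.80 (0.897 to 10.3). All 6 intervals include 1. They treat the numbers of high cells as Poisson counts, which makes them wider than binomial intervals for shares of this size. The 3 ratios of a lineage share the same sham cells and are not independent.

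The level of the members by condition was compared by a fold of 1.5, with the same reservation on the shared sham pool and 1 pool each. This is a cut on a ratio of UMI sums, so it cannot be set against the intervals over cells given for the shares. A gene was measured where both pools together had at least 20 UMIs. A gene low in sham could thus enter through the noise pool alone, so the counts are descriptions. In B cell precursor-like cells at least 1.5-fold higher levels than in sham were seen for 15 of 22 mitosis genes at day 3, 20 of 22 at day 7 and 17 of 21 measured at day 14, and for 0 replication genes at day 3, 1 at day 7 and 0 at day 14. Lower by that fold were 5, 0 and 7 of 12 replication genes. Of all genes measured there, 9.22% were higher and 7.93% lower at day 3, 10.5% and 12.3% at day 7, and 10.1% and 11.6% at day 14. Genes of 1 list come from the same cells, so their number adds no replication.

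Ube2c was among the 3 highest ratios at each time in this lineage. Its level was 186, 666, 755 and 677 CPM, ratios to sham of 3.59 (2.94 to 4.40), 4.06 (3.33 to 4.99) and 3.64 (2.93 to 4.54), with exact intervals that cover counting error only. Cenpf was at 129, 358, 451 and 311 CPM, and Ccnb1, at 62.4, 154, 259.9 and 127 CPM, was highest at day 7 (ratio 4.16 (2.95 to 6.00)). All 3 genes were lowest in the sham pool. At the other end, Mcm2, a helicase subunit with a CHR word in its promoter, was at 116, 63.9, 112 and 25.9 CPM, ratios of 0.551 (0.375 to 0.802) at day 3 and 0.224 (0.103 to 0.434) at day 14, and Tyms, which makes thymidylate, at 134, 69.3, 174 and 83 CPM. Mcm6, with an E2F word, was at 198, 154, 250.03 and 67.4 CPM, low at day 14 and highest at day 7. Mcm2, Tyms and Mcm6 were thus below sham at day 3 and day 14, and Tyms and Mcm6 were above it at day 7. The histone Hist1h1b was at 476, 511, 451 and 482 CPM.

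In immature neutrophil-like cells the mitosis genes were at least 1.5-fold higher than in sham for 18 of 22 genes at day 3, 10 of 13 measured at day 7 and 19 of 19 at day 14, while 8 of 12, 9 of 11 and 4 of 12 replication genes were lower and 2 were higher at day 14. Of all genes measured, 13.9% were higher and 10.7% lower at day 3, 19.0% and 15.3% at day 7, and 14.7% and 12.1% at day 14. Here too a gene low in sham could be measured through the noise pool alone, so these counts are descriptions. Ube2c was at 20.9, 114, 103 and 338 CPM, ratios of 5.45 (3.25 to 9.88), 4.90 (2.69 to 9.45) and 16.2 (9.58 to 29.4). Cenpf was at 5.58, 36.2, 60.2 and 99.8 CPM, resting on 4 UMIs in the sham pool. Mcm6 was at 69.7, 22.9, 11.1 and 20.9 CPM, with ratios of 0.328 (0.22 to 0.492), 0.16 (0.0497 to 0.398) and 0.3 (0.15 to 0.561). The sham pool held 5 high cells of this lineage and the day 7 pool 2, so a single cell weighs heavily on both: without the cell with most of its UMIs, the day 7 ratio of Ube2c was 3.39 and that of Mcm6 0. Mature neutrophil-like cells, by contrast, allowed ratios for few members, and Hmgb2 there was at 1640.3, 1773, 1882 and 1742 CPM.

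High cells also differed from the other cells of their lineage in genes outside the cycle lists, and these comparisons were added after seeing the data. The gate genes chose the high cells and the other members go with them, so the members are not counted. In B cell precursor-like cells, 10 of 13 precursor markers were lower in the high cells and 1 was higher, where 21.2% of 4753 genes were lower and 23.3% higher. Rag1, a subunit of the recombinase, was at 55.4, 23.7, 59.5 and 55 CPM in high cells and at 534, 484, 416 and 333 CPM in the others (log2 fold change -3.15 ± 0.22 (SE), edgeR adjusted p = 1.5e-12), with no overlap between pools. Rag2, its partner, was not called (-0.58 ± 0.29 (SE), edgeR adjusted p = 0.11). Ebf1, a B lineage factor, was at 2538, 2494, 2477 and 2568 against 6581, 5676, 6205 and 5677 CPM (-1.17 ± 0.10 (SE), edgeR adjusted p = 9.0e-11), and Vpreb1 was also lower, with a log2 fold change of -1.13. Myl4, a myosin light chain and the marker that was higher, stood at 863, 1206, 823 and 1131 against 433, 313, 514 and 468 CPM (1.33 ± 0.16 (SE), edgeR adjusted p = 1.0e-07).

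Of 59 regulators tested in B cell precursor-like cells, 50 were higher in the high cells and 4 lower. A gene could pass the filter through the high cells alone, here and in the immature neutrophils, so these counts are descriptions. E2f8, a repressive E2F that follows E2f1, was at 102, 97.2, 108 and 91.7 CPM in high cells and had 0 UMIs in the others, and Ccne2 was at 146, 126, 81.5 and 67.3 CPM against 0 UMIs. Inhibitors were on both sides: Cdkn2c was higher, at 134, 149.8, 148 and 177 against 15.2, 25.4, 13 and 18 CPM (log2 fold change 3.07 ± 0.29 (SE), edgeR adjusted p = 8.5e-10), and Cdkn1a too (1.73). Btg1 (-1.74), Btg2 (-1.72) and Cdkn1b (-0.90) were lower. Btg2 stood at 338, 373, 264 and 587 CPM in high and 1476, 1017, 1242 and 1612 CPM in other precursors.

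In immature neutrophil-like cells, with 3 pools, 9 of 10 mature neutrophil markers were lower in the high cells, where 21.2% of 3677 genes were lower and 24.3% higher. Fcnb, a ficolin of promyelocytes and myelocytes, was at 2150.4, 652 and 632 CPM in the high cells of the sham, day 3 and day 14 pools and at 145, 64.8 and 92.6 CPM in the others (log2 fold change 3.17 ± 0.28 (SE), edgeR adjusted p = 2.8e-05). Mmp8, a collagenase of later granules, was at 5.77, 208 and 2.94 against 2059, 2307 and 2639 CPM (-5.88 ± 0.82 (SE), edgeR adjusted p = 3.8e-04). Camp and Ngp, which define the lineage here, were not called. Of 43 regulators tested, 36 were higher in the high cells and 3 lower, the latter being Tob1 (-3.77), Btg2 (-2.43) and Btg1 (-1.94), all antiproliferative genes of 1 family. Cdkn2c was higher here too, at 69.2, 94.4 and 73.5 against 9.20, 5.26 and 3.56 CPM (3.58 ± 0.39 (SE), edgeR adjusted p = 1.1e-04). High cells of both lineages were deeper than the others of their pool, by medians of 15398 to 24678.5 against 5004 to 6042 UMIs in B cell precursor-like cells and of 31225 to 33986 against 12663 to 14575 in immature neutrophil-like cells, and the part of depth in these values was not tested.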

How the data were processed

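The authors deposited UMI counts per gene and cell and hashtag counts for the same barcodes, as 10x matrices written by Cell Ranger 3.1.0, per the file headers, on mm10, per the submitters' processing notes. The counts are raw and cover 1 library of 4 pools of 6 mice. Members and gene lists were chosen with earlier results of these data known.

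Barcodes with 1 leading hashtag, at least 200 genes and at most 10% mitochondrial UMIs were kept (1285 of 1556). A cell took the lineage with the highest mean log level of its marker list, at a score of at least 0.75, a margin of 0.3 over the next list and at least 3 markers detected. Values are UMIs per 1000000 gene UMIs (CPM). UMIs were summed per pool and lineage (at least 10 cells, or 4 high cells) and tested with edgeR 4.0.16 (quasi-likelihood, TMM, default filter, pool as block, R 4.3.3), Benjamini-Hochberg adjusted over all genes at a threshold of 0.05. The edgeR test was also run on counts simulated from the means and dispersions of the real data. This covered B cell precursors against immature neutrophils and high B cell precursors against high granulocytic cells. The pools hold cells of separate mice, but no pool was repeated.

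Shares have exact Clopper-Pearson 95% intervals. Ratios have exact conditional intervals that treat both numbers as Poisson counts. Both kinds cover counting error only. Ratios to sham were computed for lineages with at least 30 cells in both pools and genes with at least 20 UMIs over both. Thinning drew 3000 UMIs per cell. The genes named were, per comparison, the gate genes, the 5 members with the largest fold change in each role and direction, the 3 largest regulators per list, the 3 highest and 3 lowest ratios to sham, and lineage markers; a few others were chosen after their values were seen. The alternatives tried were RLE factors, DESeq2 1.42.0, no filter, no pool block, each pool left out, a stricter hashtag rule, a lineage margin of 0.6, no deepest 5% of barcodes and other gates. Promoters are RefSeq's and gene positions GENCODE's, both on GRCm38.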

Additional observations from a re-analysis of the deposited data

Results flagged for a closer look

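The ratio to sham of the share of Mki67/Top2a-high cells lay on opposite sides of 1 in 2 lineages, with counting intervals that all include 1. At day 7 it was 1.53 (95% interval 0.756 to 3.07) in B cell precursor-like cells and 0.525 (0.05 to 3.21) in immature neutrophil-like cells, and at day 14 it was 0.796 (0.317 to 1.85) and 2.80 (0.897 to 10.3). Each ratio comes from 1 pool per condition and the difference between the lineages was not tested. The replication genes also lay on opposite sides at day 7, with a median log2 ratio to sham of 0.24 in B cell precursor-like cells and of -1.47 in immature neutrophil-like cells, where 2 of the 32 cells of the day 7 pool were high. That difference was not tested either. Among the barcodes with mixed hashtags, which no comparison used, 7 of 44 were Mki67/Top2a-high (15.9%, exact 95% interval 6.64 to 30.1%), with a median depth of 18222.5 UMIs over the 44, against 13.5% of the cells with 1 hashtag.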

How the results depend on the processing

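Across the alternatives, 488 of 545 summary values stayed within the margin set for them, as did 3046 of 3260 single-gene values in direction and call; 185 of the latter lost their call, 7 gained one and 21 changed sign. The shares moved with the gate and with depth. With 1 gate UMI the shares were 72.5% in myeloid progenitor-like, 32.4% in B cell precursor-like, 16.3% in NK cell-like, 8.75% in T cell-like, 8.49% in B cell-like and 3.82% in mature neutrophil-like cells. Progenitors stood at 31.4% with at least 5 gate UMIs, at 88.2% with at least 10 UMIs of replication and mitosis genes and, thinned to 3000 UMIs, at 3.92%, or 29.4% with 1 gate UMI. Thinned immature neutrophil-like cells stood at 9.28%, and thinned cells with 1 gate UMI at 3.20% in mature neutrophils and 6.80% in B cells. Without the 5% deepest barcodes the T cell share was 0, and with the larger lineage margin the day 7 ratio of immature neutrophils was 0. The progenitors' mean log2 replication to mitosis ratio was 0.44 with thinned cells and 1 gate UMI and 2.21 by the median gene of each list.

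The counts of higher members against immature neutrophils fell to 5 of 42 tested with the larger margin, with a median log2 fold change of 1.09 against 0.93, and in immature against mature neutrophils went to 44 of 44 with no filter and to 7 of 7 tested with the larger margin. In high B cell precursors against high granulocytic cells, gate genes included, they were 18 without myeloid progenitors, 10 among mostly mitosis cells and 22 among mostly replication cells. Of all genes there, 293 were higher and 332 lower among mostly mitosis cells, 409 and 479 among mostly replication cells, 522 higher by DESeq2 and 1630 lower with no filter. Scaling by total UMIs gave 1723 higher and 492 lower genes there, and 4435 and 935 against immature neutrophils. DESeq2 gave 470 higher and 556 lower genes against B cells, 735 and 518 between high and other B cell precursors, 513 and 391 between high and other immature neutrophils, and 126 and 124 between mostly replication and mostly mitosis cells, where dropping the 5% deepest barcodes gave 141 and 140. In immature against mature neutrophils, no filter gave 1720 higher genes.

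Leaving out each pool in turn gave 19 to 38 higher members against immature neutrophils, 450 to 972 higher and 591 to 1076 lower genes against B cells, 723 to 1222 and 696 to 1145 in immature against mature neutrophils, 567 to 916 and 469 to 851 between high and other immature neutrophils, and 140 to 280 and 154 to 280 between mostly replication and mostly mitosis cells. The lowest counts were without the day 3 pool, or, in the last comparison, without day 7.

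Scaled by total UMIs, the sign against immature neutrophils turned for Hmgb2 (0.65), Ccnd3 (0.52), Tob1 (0.45), Rbl2 (0.21), Cdkn2d (0.19), Cdc25a (0.17) and Lin54 (0.15). In the high cells it turned without myeloid progenitors for Rrm2 (-0.0912), Hmgb2 (-0.20), Ccne2 (-0.252), E2f8 (-0.15) and Cdk6 (0.48), and among mostly mitosis cells for Hist1h2ap (-0.20) and Ccnd3 (-0.0841). Between mostly replication and mostly mitosis cells it turned for Hist1h1b (-0.20 without day 3, -0.546 without the deepest barcodes), Hist1h2ap (-0.56 and -0.47) and Hist1h2ae (-0.93 and -0.60, and -0.02 without day 7); over the pools left out their values ran up to 1.07, 1.02 and 1.43, without the sham pool. The causes were not tested. The pools carry no replicate numbers: no paired analysis was possible because each condition is 1 pool, and the pool block pairs lineages within a pool. With no pool block, 23 members were higher against immature neutrophils (median 0.86) and 25 in the high cells.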
